A study of Rattus norvegicus with 18 samples.

Results

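The regions described here were broad accessible regions of cultured rat forebrain neurons, listed peaks at least 4000 bp long. They were chosen by chromosome, length and the value in the fourth column of the deposited peak list. Members had to lie on chromosomes 1 to 20, measure 4000 bp or more and hold a value of 3 or less. There were 366 such broad peaks among 186372 peaks of those chromosomes with a value of 3 or less, and among 192830 peaks in the whole list.

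ATAC-seq, which reads where a transposase can insert into open DNA, was run on cultures from Sprague-Dawley rats taken at embryonic day 18 and grown for 11 days in vitro. The 18 libraries came from cortical, hippocampal and striatal neurons, each treated for 1 h with vehicle or potassium chloride, with 3 libraries for each of the 6 groups. The sample descriptions give 25 mM potassium chloride and the series text gives 10 mM. Vehicle and potassium chloride libraries of a culture system were pooled before peaks were called, so no value below separates treatments or replicates, and sequencing depth is unknown.

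Most accessible regions are short, because a promoter or enhancer frees only a small stretch of DNA between nucleosomes. Long accessible stretches can arise where several regulatory elements sit side by side or where a start site is kept open over a wide region. Membrane depolarization with potassium chloride turns on immediate early genes, whose products include transcription factors of the AP-1 family.

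Of the start sites examined, 3 lay in a broad peak, those of Mn1, Junb and Trib2. Promoter sequences are shown for the 2 of these 3 genes that matched a symbol in the RefSeq table of assembly GRCr8, Junb and Trib2, because their start sites tie broad peaks to named genes. Each runs from 250 bases before to 50 bases after the RefSeq gene start, 5′ to 3′ on the strand of the gene, and the GRCr8 positions do not apply to the Rn6 peaks. Capitals mark matches on either strand to the core of the cAMP response element (TGACG), the GC box (GGGCGG), the CCAAT box (its letters are CCAAT) or the TATA box (TATAAA). No marked matches overlap each other.
Junb, GRCr8 chr19:40080876-40081175, + strand: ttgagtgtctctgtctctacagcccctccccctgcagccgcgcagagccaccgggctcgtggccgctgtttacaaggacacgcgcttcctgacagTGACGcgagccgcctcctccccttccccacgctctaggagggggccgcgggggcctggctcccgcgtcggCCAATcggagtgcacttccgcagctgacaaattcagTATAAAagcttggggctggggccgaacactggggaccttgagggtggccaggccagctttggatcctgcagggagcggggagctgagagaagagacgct
Trib2, GRCr8 chr6:44299045-44299344, - strand: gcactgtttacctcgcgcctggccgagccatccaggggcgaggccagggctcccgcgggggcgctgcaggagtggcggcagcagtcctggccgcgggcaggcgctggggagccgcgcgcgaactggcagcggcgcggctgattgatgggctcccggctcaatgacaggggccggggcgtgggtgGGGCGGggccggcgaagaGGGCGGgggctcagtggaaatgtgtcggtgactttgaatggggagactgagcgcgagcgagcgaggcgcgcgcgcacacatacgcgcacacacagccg

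The Junb promoter held 1 match each to the cAMP response element core, the CCAAT box and the TATA box, beginning 155, 85 and 49 bases before the start. The Trib2 promoter held 2 GC boxes, beginning 66 and 48 bases before the start, and none to the other motifs. Of 33469 promoters of the same length, 21.2% held the cAMP response element core, 33.1% the GC box, 37.5% the CCAAT box and 14.2% the TATA box. CG dinucleotides numbered 21 in the Junb promoter and 37 in that of Trib2, against a median of 7 over all promoters. As many or more were found in 22.6% and 4.78% of promoters. The median was 22.5 over 50 promoters of genes in the same list whose start lay in another peak, and 5.5 over 14 whose start lay in no peak, so the CG count of the Junb promoter was not high for that list.

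Length and fourth-column value are given as descriptions, since they selected the members. The authors merged neighbouring peaks of a culture system, so a listed length can include stretches between called peaks. The shortest broad peak measured 4012 bp and the longest 34281 bp. Their median length was 4594.5 bp, between quartiles of 4259.5 and 5743.5 bp. There were 225 below 5000 bp, 91 from 5000 bp to below 7000 bp, 27 from 7000 bp to below 10000 bp and 23 of 10000 bp or more. Together they were 0.196% of all peaks at or under that value and 1.34% of the length such peaks covered. The shortest members measured 4012, 4020 and 4021 bp, and the longest peaks just outside measured 3995, 3997 and 3999 bp, all 6 with a value of 3.

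The fourth column, which ran from 1 to 10 over the whole list, is not described in the sources used here. It was read as the number of culture-system peaks joined into a listed peak, and a value of 3 need not mean 1 from each culture system. A value of 3 was held by 348 of the broad peaks, or 95.1% (Wilson 95% interval 92.4% to 96.9%), against 18.8% of all peaks valued at 3 or below. A value of 2 was held by 16 and a value of 1 by 2. Both members with a value of 1 lay on chromosome 7 (Rn6), at chr7:133128646-133133545 and chr7:136036087-136043601. A further 258 peaks of 4000 bp or more had a value over 3 and were not members. Their median length of 5063 bp was above that of the members, while their longest, at 26955 bp, was shorter than the longest member.

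The longest member, chr16:37749034-37783314, had 3 other peaks within 100 kb and no broad peak nearer than 6199738 bp. The next were chr6:133774833-133795623, at 20791 bp, and chr12:9530165-9550420, at 20256 bp. Lengths from 17773 down to 14102 bp followed at chr1:180896742-180914514, chr2:49353292-49371003, chr2:156979512-156994900, chr1:181943048-181958124, chr1:55643946-55658905, chr17:44212488-44226708 and chr1:180538857-180552958. Of these 10, 4 lay on chromosome 1 and 8 had another broad peak within 100 kb, the exceptions being those on chromosomes 16 and 12.

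Broad peaks were spread unevenly over the chromosomes. On chromosome 19, 33 of 4901 peaks were broad, or 0.673% (Wilson 95% interval 0.48% to 0.944%). On chromosome 5, 9 of 12194 were broad, or 0.0738% (0.0388% to 0.14%), which made a 9.12-fold range. Had peaks of each fourth-column value been broad at the same percent everywhere, chromosome 19 would have held 12.0 broad peaks. Chromosomes 3, 4 and 5 held 29 together where the same reckoning gave 71.2. Chromosome 1 held the most, 49, close to the 43.2 reckoned, and chromosome 14 held 26 against 13.9.

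**Figure D1:**
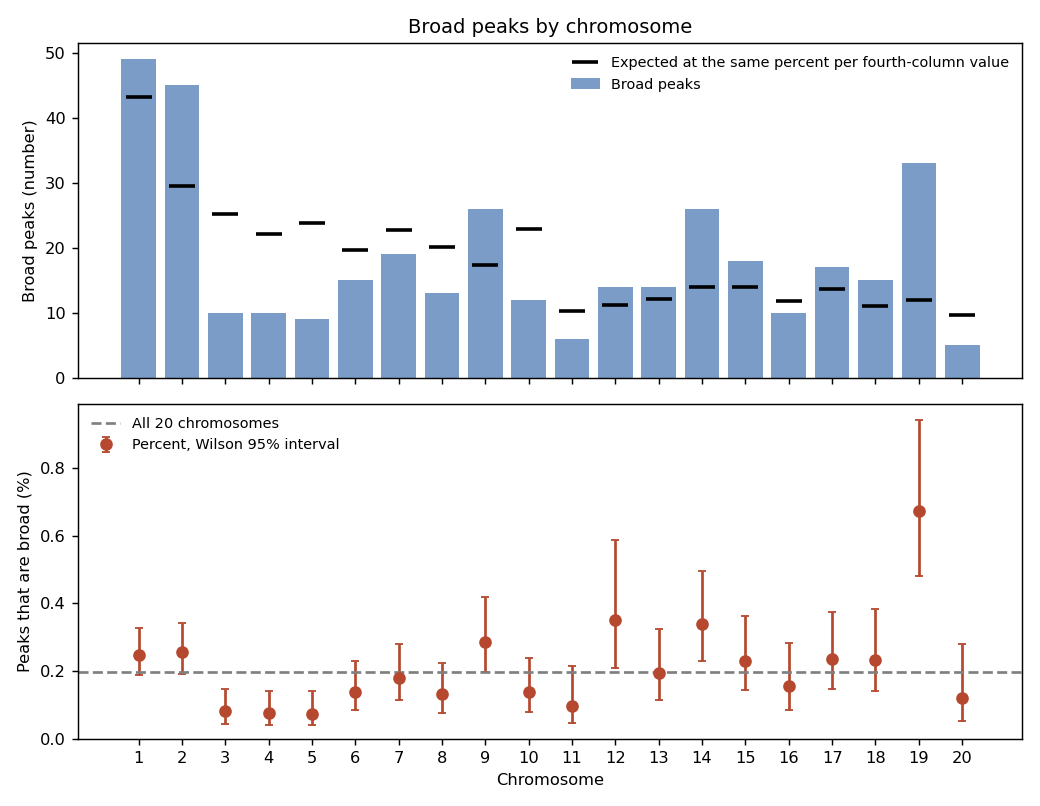
Upper panel, number of broad peaks on each chromosome (bars) and the number reckoned if each fourth-column value had the same percent of broad peaks on every chromosome (black marks); lower panel, percent of peaks that were broad with Wilson 95% intervals and the percent over all 20 chromosomes (dashed line). Chromosome 19 stands highest at 0.673%, and chromosomes 3, 4 and 5 lie lowest.

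The spread was narrower when neighbouring broad peaks were counted once. The 33 broad peaks of chromosome 19 fell into 14 groups when broad peaks less than 100 kb apart were joined, and the 49 of chromosome 1 into 29. Counted once per group, the rate ran from 0.653 per 1000 peaks on chromosome 11 to 3.01 on chromosome 12, a 4.61-fold range, with chromosome 19 at 2.86.

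Broad peaks lay close to one another more often than shorter peaks lay close to them. Another broad peak was found within 100 kb of 143 of 366, or 39.1% (Wilson 95% interval 34.2% to 44.2%). Among 186006 shorter peaks, weighted so that their chromosomes and fourth-column values had the shares of the broad peaks, 6.45% had a broad peak within 100 kb. The broad peaks' percent was higher on 14 of the 20 chromosomes, and no broad peak had another within 100 kb on the remaining 6. The interval covers counting error only and treats peaks as independent, which neighbours are not. The median distance to the nearest other broad peak was 369057 bp for broad peaks and 3158455 bp for the weighted shorter peaks.

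All 143 had a fourth-column value of 3, or 41.1% of the 348 with that value, and none of the 18 with a lower value had a broad neighbour. Closeness to broad peaks was not particular to the members among long peaks. Of the 258 peaks of 4000 bp or more with a value over 3, 103 or 39.9% (34.1% to 46%) had a broad peak within 100 kb, near the 39.1% of the members. In turn, at least 1 peak of 4000 bp or more with such a value lay within 100 kb of 113 broad peaks, or 30.9% (26.4% to 35.8%), against 5.07% of the weighted shorter peaks.

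The share with a broad neighbour was 30.2% (24.6% to 36.5%) for members below 5000 bp and 48.4% and 48.1% in the middle length classes. It was 78.3% (58.1% to 90.3%) at 10000 bp or more, over 23 peaks. Just below the threshold, 14.2% of peaks from 3000 bp to below 4000 bp had a broad peak within 100 kb. Among shorter classes the share was 4.87% from 2000 bp, 2.67% from 1000 bp, 2.21% from 500 bp and 2.43% under 500 bp. With only peaks of value 3 taken, the shortest class stood higher. Of 708 such peaks under 500 bp, 148 or 20.9% (18.1% to 24.1%) had a broad peak within 100 kb, above the 3.48% of those from 1000 bp to below 2000 bp.

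**Figure D2:**
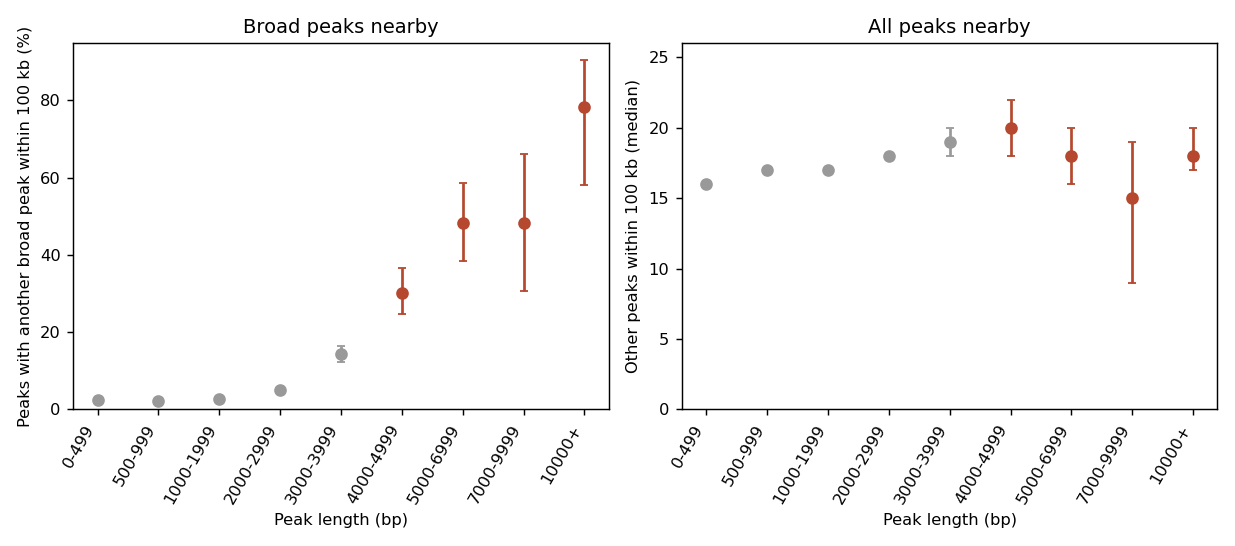
Left, percent of peaks with another broad peak within 100 kb by peak length in bp, with Wilson 95% intervals; right, median number of other peaks within 100 kb with order-statistic 95% intervals. Red points are broad peaks and grey points shorter peaks, all with a fourth-column value of 3 or less. The percent reaches 78.3% in the longest class, while the medians on the right stay between 15 and 20.

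When joined at less than 100 kb, 223 broad peaks stood alone and 143 fell into 47 groups. Of these groups, 29 were pairs, 8 held 3 members, and 10 held 4 or more, with 61 broad peaks among them. The largest, chr1:180701849-181238350, held 12 broad peaks of 4036 to 17773 bp over 536502 bp, with 48 listed peaks in all and 17.9% of the span inside broad peaks. Within 1 Mb of it lay 6 other broad peaks. The group at chr17:44212488-44482064 held 9, which made up 40.9% of the 22 peaks listed there and 23.5% of its span. The group at chr13:33474062-33814704 held 7 of 26 listed peaks. The next, chr19:29139989-29289550, held 6 of 23. The groups on chromosomes 1 and 19 each also held 2 peaks of 4000 bp or more with a value over 3, and those on chromosomes 17 and 13 held 0.

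**Figure D3:**
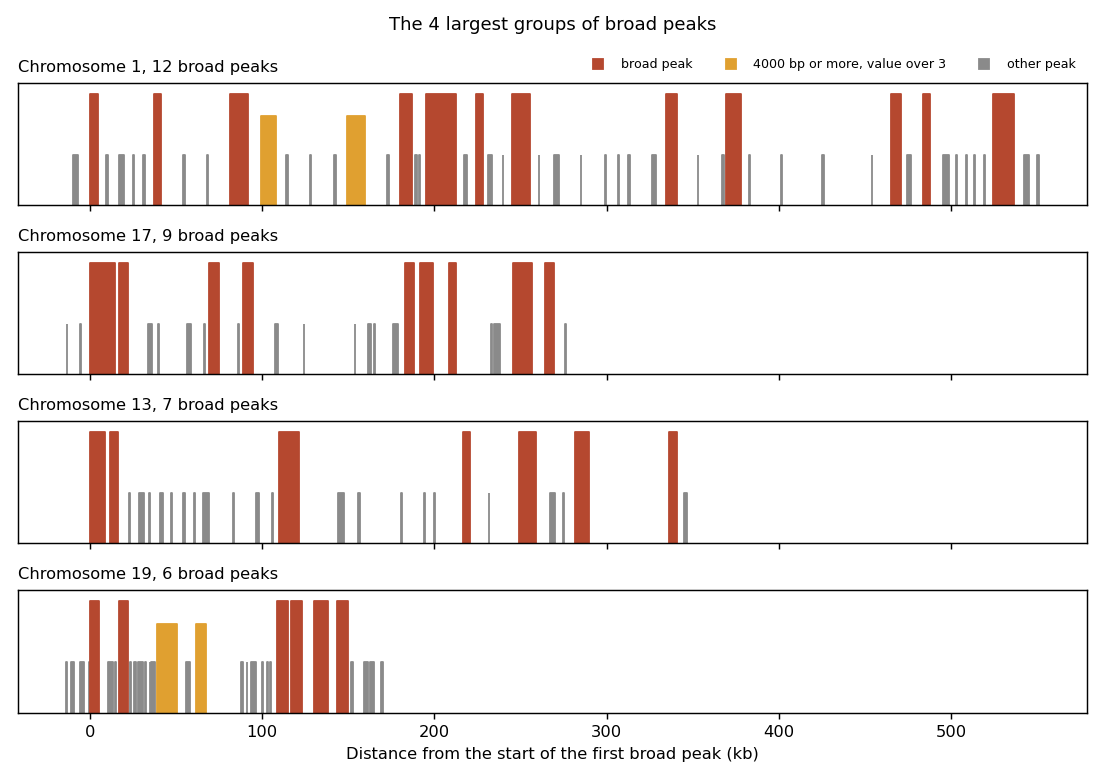
Listed peaks in the 4 largest groups, drawn to scale by distance in kb from the start of the first broad peak, with broad peaks in red, peaks of 4000 bp or more with a fourth-column value over 3 in orange and other peaks in grey. Bar heights only tell the kinds apart. The group on chromosome 1 extends over 536502 bp and that on chromosome 19 over 149562 bp.

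The number of peaks of any kind around broad peaks differed little from that around shorter ones. The median was 19 other peaks within 100 kb (order-statistic 95% interval 17 to 20), with quartiles of 13 and 25, against 18 for the weighted shorter peaks. The means were 19.01 (SD 8.41 between peaks) and 17.9. This difference of 1.07 peaks came down to 0.25 without chromosome 19, where broad peaks had a mean of 29.4 and weighted shorter peaks 19.98. On only 7 of the 20 chromosomes was the mean higher for broad peaks. The order also turned with the window, with medians of 10 and 9 at 50 kb, but 81 for broad and 87 for shorter peaks at 500 kb.

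The kinds of neighbour differed more than their number. Peaks of 2000 bp or more, broad peaks not counted, averaged 3.19 within 100 kb of a broad peak and 1.37 within 100 kb of a weighted shorter peak, and 2.78 and 1.26 without chromosome 19. The mean was higher for broad peaks on 19 of the 20 chromosomes. Peaks with a fourth-column value of 1 were fewer, at 5.7 against 7.32. The 143 broad peaks with a broad neighbour averaged 5.12 peaks of 2000 bp or more around them and the 223 without averaged 1.96. The gap to the nearest listed peak had a median of 3672.5 bp for broad and 5283 bp for weighted shorter peaks.

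**Figure D4:**
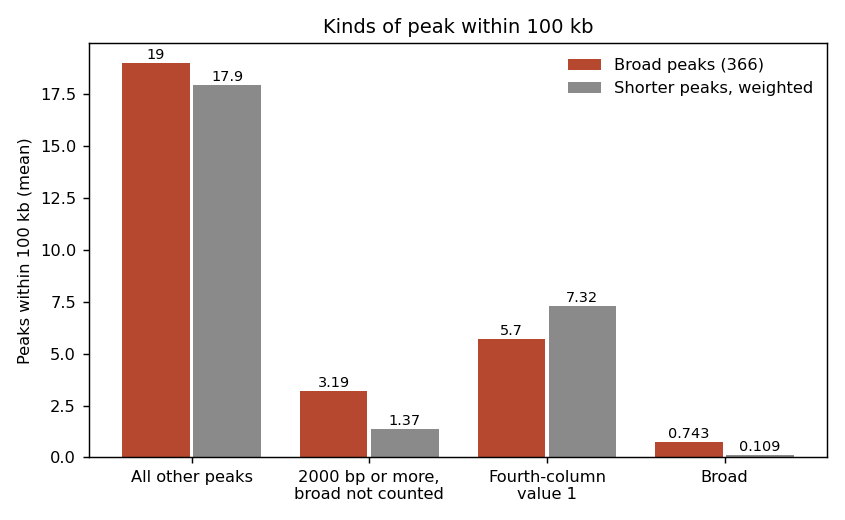
Mean number of peaks within 100 kb of the 366 broad peaks (red) and of shorter peaks weighted by chromosome and fourth-column value (grey), for all other peaks, for peaks of 2000 bp or more without the broad ones, for peaks with a fourth-column value of 1 and for broad peaks. All peaks together are near in number, 19.01 against 17.9, while peaks of 2000 bp or more stand at 3.19 against 1.37.

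The extremes of density were far apart. No other peak lay within 100 kb of chr15:22207304-22212046, whereas chr19:338574-342858 had 47, the most of any member, in a group of 5 broad peaks near the start of that chromosome. Within 1 Mb of the first or last listed peak of a chromosome lay 21 broad peaks, or 5.74% (3.78% to 8.61%), against 2.13% of the weighted shorter peaks. At the first listed peak were 18 of the 21, and shorter peaks leaned the same way, with 1.38% there. The 18 included 5 from 1 group on chromosome 19, 4 on chromosome 2 and 4 on chromosome 7, so a few chromosomes held most of them.

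Gene start sites were taken from the genes that the authors paired with activity-regulated TAPEs, transcriptionally active putative enhancers outside genes. The study chose these TAPEs on RNA-seq libraries not analysed here, and the ATAC-seq libraries supplied the open regions. The list named 87 genes, 85 of them on chromosomes 1 to 20. With 500 bp added on either side, 3 start sites lay in a broad peak, 60 in a shorter peak, 1 in a long peak with a value over 3 and 21 in no peak. Of the 61 start-site peaks with a value of 3 or less, 4.92% (Wilson 95% interval 1.69% to 13.5%) were broad, against 0.196% of all such peaks. All 3 had a value of 3, and with that value alone 3 of 50 start-site peaks were broad, or 6% (2.06% to 16.2%), against 0.992% of all peaks with it. Start sites from the list were in 0.82% (0.279% to 2.38%) of broad peaks and 0.122% of weighted shorter peaks, a comparison that rests on 3 broad peaks. Longer peaks cover more bases and so can hold a start site more easily, and none of these comparisons adjusted for length. The median length was 1529.5 bp for the 64 peaks at start sites and 685 bp for shorter peaks. How far length accounts for the differences was not tested. Start sites were the gene ends at the distances listed for the TAPEs, and for 6 of 66 genes, Junb among them, that end was not the start by the strand in GRCr8. With the GRCr8 strand the counts were 3 in a broad peak, 58 in a shorter peak, 1 in a long peak with a value over 3 and 23 in no peak.

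Mn1, a transcriptional regulator, had its start in chr12:51247775-51252084, a peak of 4310 bp with 24 other peaks within 100 kb. Its 3 TAPEs, of 890, 1117 and 1852 bp, lay 46004, 48516 and 295115 bp from this peak, with 4, 5 and 37 listed peaks between. Junb, an AP-1 transcription factor, had its start in chr19:26091882-26096566, a peak of 4685 bp that covered the listed gene from end to end, so either end lay in it. Its TAPE of 1401 bp was 4623 bp away with 0 peaks between. Trib2, a pseudokinase, had its start in chr6:41037402-41041496, of 4095 bp, and its TAPE of 763 bp lay 502895 bp away beyond 46 listed peaks. All 3 broad peaks had a value of 3, and none had another broad peak within 100 kb.

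**Figure D5:**
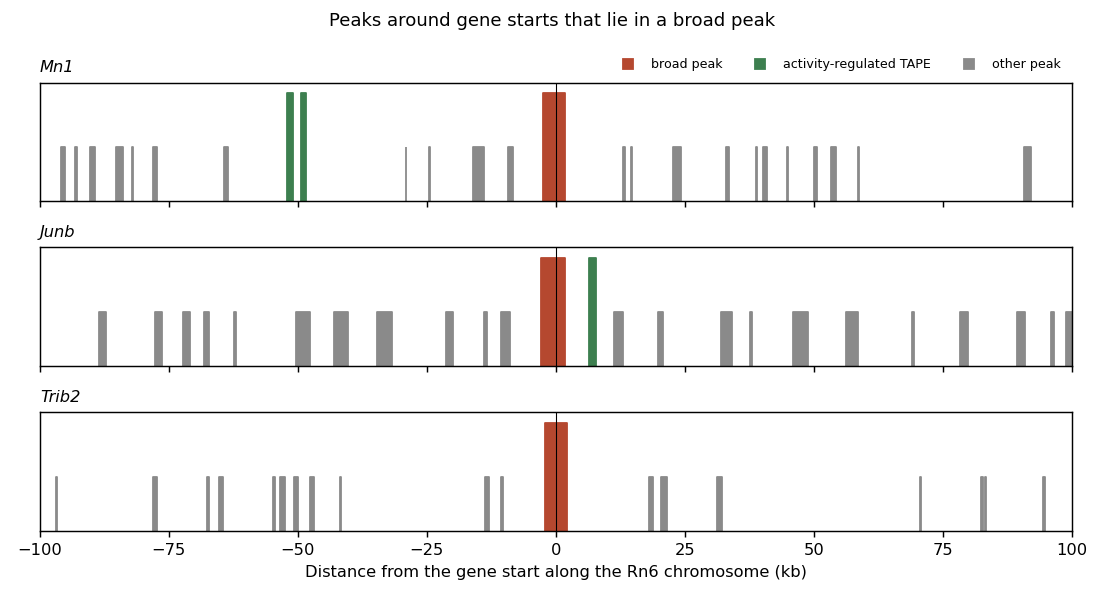
Listed peaks within 100 kb of the Mn1, Junb and Trib2 start sites, drawn to scale by distance in kb along the Rn6 chromosome, with the broad peak in red, activity-regulated TAPEs in green and other peaks in grey. Bar heights only tell the kinds apart. Each broad peak stands alone as such, and the Trib2 TAPE lies outside the range drawn.

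The start sites of Fos, Fosb and Klf4, named because the study shows them as examples, lay in shorter peaks. The Fos start was in a peak of 3114 bp, that of Fosb in one of 2668 bp and that of Klf4 in one of 2004 bp, and the Nr4a1 start, itself in no peak, met a peak of 280 bp with its added bases. Of 3 guide RNA entries for the Nr4a1 promoter, 2 pointed 5994 and 6020 bp from this start, into a peak of 1755 bp. The remaining entry pointed 14668 bp away into a peak of 859 bp, at a position also listed for the Nr4a1 enhancer. The nearest broad peak lay 24474400 bp from the Fos start and 1895042 bp from that of Fosb. Nfil3, a transcriptional repressor named here after its value was seen, had its start in a peak of 4986 bp with a value of 4, which the rule left out.

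Of the 96 activity-regulated TAPEs, 94 lay on chromosomes 1 to 20 and all 94 matched a listed peak, with a median of 1289 bp and a longest of 3808 bp. Among the 90 with a value of 3 or less, 0 were broad, where the percent broad of all peaks with each value would give 0.611. A list of this size would therefore hold few or none, and the upper Wilson bound of 4.09% includes the 2.65% found for cortex-selective TAPEs below. With no broad TAPE in that list, it gave no predicted gene of one. None of the 15 guide RNA entries for Fos, Fosb, Nr4a1 and a control region on chromosome 6 pointed into a broad peak, and 14 pointed into peaks of at most 3114 bp. The remaining entry, for the control region, listed chr6:102912292 and lay in no peak. The study places this region between a Fos enhancer and the Fos promoter, whose entries listed chr6:109262269 and chr6:109299229. The listed control position does not lie between them, so its place is in doubt.

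Cortex-selective TAPEs, also chosen by the study on RNA-seq, formed a longer list that included broad peaks. Hippocampus-selective and striatum-selective TAPEs were not analysed here, because the sheets read for them held the same 390 regions as the cortex sheet and the sheet of all regions was read only in part, so nothing here is particular to cortex. Of 377 with a value of 3 or less, 10 were broad, or 2.65% (1.45% to 4.81%), where the percent of each value would give 1.53. They made up 2.73% (1.49% to 4.96%) of broad peaks against 0.384% of weighted shorter peaks. The study counted RNA reads over each open region outside genes, so a longer region can gather more reads and pass more easily. The peaks used for comparison, here and for the activity-regulated TAPEs, included those in or near genes. How much of the difference comes from this way of choosing TAPEs was not tested. The longest were chr1:181943048-181958124, at 15077 bp, chr1:180538857-180552958, at 14102 bp, and chr4:146538695-146548866, at 10172 bp. Among the 10, 5 had another broad peak within 100 kb, including chr17:44395214-44400384, a member of the group of 9 on chromosome 17. A further 5 cortex-selective TAPEs of 4000 bp or more had a value over 3. Start sites outside the list and genes around the remaining broad peaks were not analysed here.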

How the data were processed

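The authors trimmed reads with Trim Galore 0.4.5, aligned them to Rn6 with Bowtie2 2.3.4.2, sorted them with SAMtools 1.9, pooled the libraries of each culture system and called peaks with MACS2. They merged neighbouring peaks within a culture system, removed the shortest, and combined the 3 sets with bedtools. The deposited list gives chromosome, start, end and column 4, a score from 1 to 10 whose meaning is not given in the sources used here. It was read as the number of merged culture-system peaks, and this reading was not tested. A peak list holds no reads, so depth is unknown.

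Members and lists were chosen with earlier results of these data known. Other peaks were counted when they overlapped the 100 kb beyond either edge. Shorter peaks with a value of 3 or less were weighted by chromosome and column 4. Positions are 1-based. Start sites and TAPEs were taken, as positions only, from supplementary sheets read in full, after removing the 500 bp added to either side of cortex-selective TAPEs. Sheets read in part, or repeating the cortex-selective regions under another name, were not used here. Named regions were the 10 longest, 3 at either side of the length threshold, the 3 largest groups, extremes of density and chromosomes at either end of the percent broad. The fourth group in size, the members with a value of 1, the longest cortex-selective TAPEs and Nfil3 were named after their values were seen. Named genes had a start site in a broad peak, were predicted targets of broad activity-regulated TAPEs, or were Fos, Fosb, Nr4a1, Klf4 or Mn1. Shares carry Wilson and medians order-statistic 95% intervals, which cover variation between peaks only, and no test was run. Scripts used Python 3.11.15, numpy 2.4.6, pandas 2.3.3, scipy 1.17.1 and matplotlib 3.10.9, and counting was tested on simulated data.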

Additional observations from a re-analysis of the deposited data

Results flagged for a closer look

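Peaks that met the length and fourth-column limits were also found outside chromosomes 1 to 20, in peaks no comparison above uses. Chromosome X held 13 of 4376 peaks with a value of 3 or less, or 0.297% (Wilson 95% interval 0.174% to 0.508%). Unplaced scaffolds held 10 of 963, or 1.04% (0.565% to 1.9%), and chromosome Y held 0 of 58. These 13 and 10 peaks are given because the comparisons leave their sequences out. The interval for chromosome X includes the 0.196% of chromosomes 1 to 20, and that for the scaffolds lies above it.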

How the results depend on the processing

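Of 25 alternatives, 13 moved a value beyond its interval or, for a count, beyond 1.5 times, and 12 did not. With any fourth-column value there were 624 broad peaks, with a minimum of 3000 bp 1527 and with 5000 bp 141. The percent with a value of 3 was 87.5% at 3000 bp and 98.6% at 5000 bp. The median number of other peaks was 10 at 50 kb, 81 at 500 kb and 16.5 when only other peaks of 300 bp or more were counted. For shorter peaks the median was 17 with no weights and 17 with weights by chromosome only. The percent with another broad peak was 32.0% at 50 kb, 56.0% at 1000 kb and 32.8% without the 4 largest groups. For the weighted shorter peaks these percents were 4.14%, 24.2% and 6.41%, so the contrast with shorter peaks was weaker at 1000 kb. For the 6.41%, broad peaks of the 4 groups still counted as neighbours of shorter peaks, and only the weights changed. Windows and minimum lengths change these values by construction, and the cause of the other moves was not tested. The 3 start sites did not change in number without added bases, with 1000 bp added or by the GRCr8 strand, nor did the 10 enhancers under any overlap. Leaving out chromosome 19 (35.1% with another broad peak) or the largest groups and taking the GRCr8 strand were chosen after seeing the data. No paired analysis was possible because peak calling was done on pools of libraries, and depth, treatment and replicate spread cannot be assessed.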
